A study of Mus musculus with 2 samples.

Results

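The genes described here carry fatty acids into the heart muscle cell, activate them, move them into the mitochondrion, oxidise them there, or store them as triglyceride and release them again. The 40 genes were chosen by name from knowledge of the pathway, with earlier results of these data known. They were matched by gene symbol to 40 of the 55536 annotated genes in the deposited tables. Total RNA was sequenced from the heart of female B6CASTF1/J mice, an F1 hybrid of a C57BL/6J and a CAST/EiJ parent, at an age of 25 days. The series holds 1 group with 2 libraries, labelled biological replicates 1 and 2. Each started from 300 ng of RNA, to which ERCC spike-in RNA had been added. The labels name a single donor record for both libraries and give each its own animal number, so they were treated as 2 animals. No treatment or genotype was compared, and a test between the libraries speaks of these 2 hearts, not of a condition.

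Long-chain fatty acids reach the heart bound to albumin or are released from lipoprotein triglyceride at the capillary wall. Inside the cell they are bound by a carrier protein, joined to coenzyme A, and passed through the mitochondrial membranes as carnitine esters. Beta-oxidation then shortens the chain in repeated cycles, and its electrons enter the respiratory chain. The adult heart draws most of its energy from this route, while the fetal heart relies more on glucose and lactate.

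All 40 genes were detected at 1 TPM or more in both hearts, beside 11947 of all 55536 genes and 10972 of 22015 nuclear protein-coding genes. TPM is transcript abundance corrected for length and scaled to a fixed total, so it allows levels to be compared between genes. The median over the 40 genes was 159.84 TPM in the first heart (replicate 1) and 141.885 TPM in the second (replicate 2), with a mean of 150.9 ± 12.7 (SD, n = 2), against 9.11 and 8.51 TPM over detected nuclear protein-coding genes. Together the 40 genes held 1.04% of all gene TPM in replicate 1 and 0.996% in replicate 2. Of the 40, 28 ranked among the 1000 most abundant nuclear protein-coding genes, and 6 ranked among the first 100. Fabp3, Lpl, Hadhb, Cd36 and Etfb, the 5 highest by mean level, held 47.3% and 46.3% of the summed TPM of the 40. Only Cpt1a, Ucp3, Lipe, Acot1, Dgat1 and Acaca had a mean level under 25 TPM. Levels differed little between the hearts, with a coefficient of variation under 10% for 32 of the 40 genes.

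**Figure D1:**
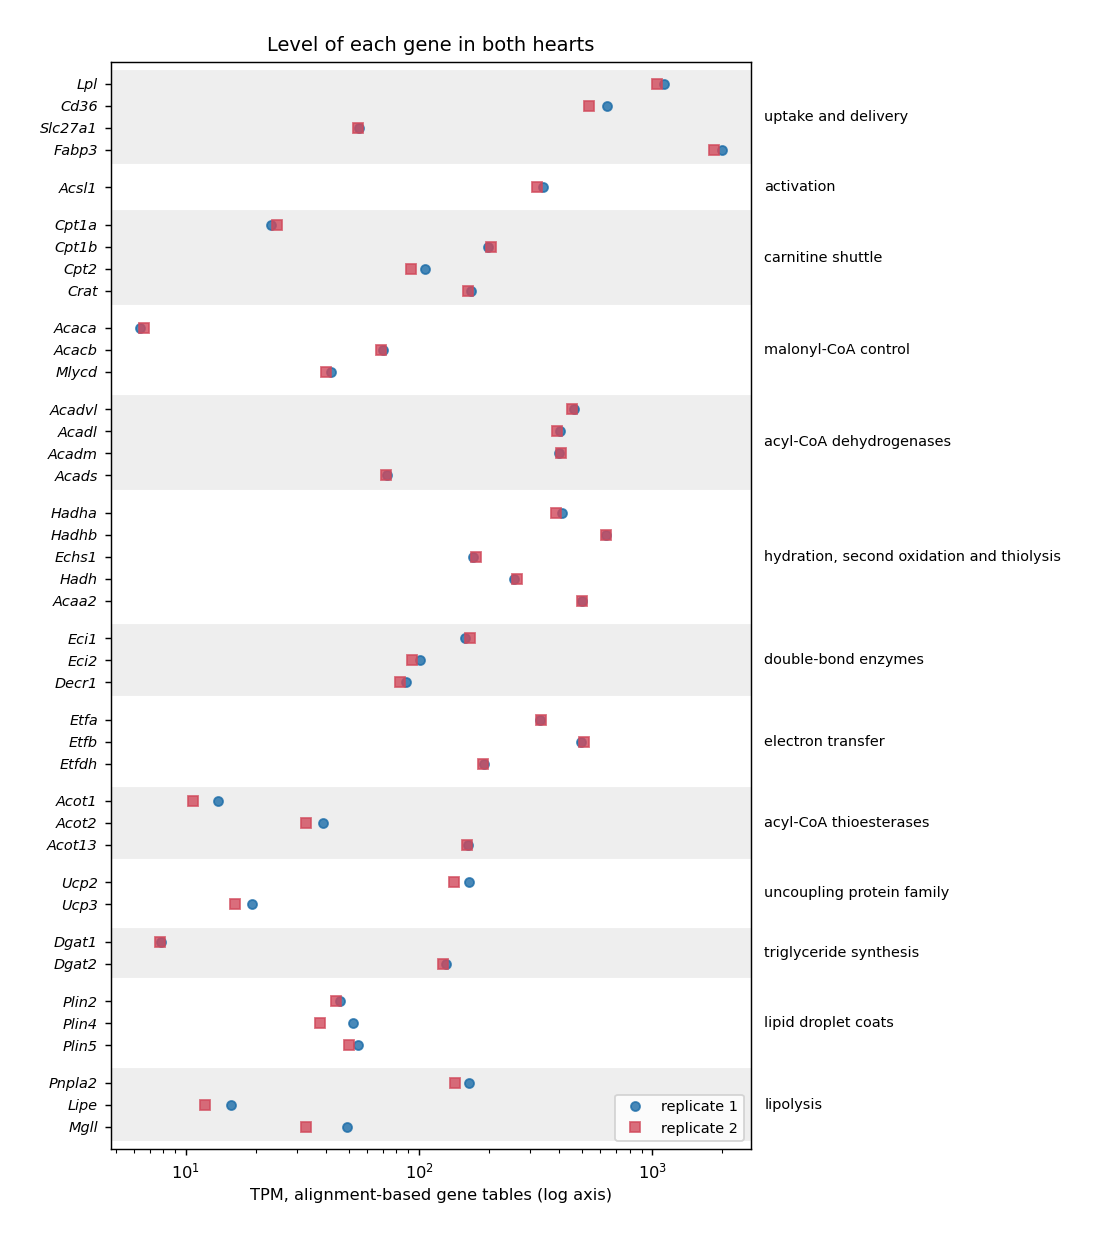
TPM of each of the 40 genes (log axis) in replicate 1 (circles) and replicate 2 (squares), grouped by step from uptake at the top to lipolysis at the bottom. Fabp3 and Lpl lie above 1000 TPM in both hearts, and Acaca and Dgat1 lie below 10 TPM in both.

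The libraries held 42966739 and 42720824 counts assigned to genes, and the mean count of the 40 genes ran from 392 to 128376. ERCC transcripts took 0.518% and 0.544% of counts. All 8 cardiomyocyte markers were detected, Myh6 the highest, with a summed level of 34348 TPM in replicate 1 and 35491 TPM in replicate 2, which fits the heart label. Fast skeletal muscle markers summed to 0.96 and 0.71 TPM, with none over 1 TPM (Pvalb and Atp2a1 the highest). TPM ran slightly lower in replicate 2 across the genome, with a median log2 TPM ratio of -0.08 over detected nuclear protein-coding genes, while the small structural RNAs Rn7s1 and Rn7s2 each took 66693 TPM in replicate 1 and 78851 TPM in replicate 2. Ratios between the hearts are therefore given below on counts scaled by TMM, a factor that centres the bulk of genes, as log2 of replicate 2 over replicate 1. On that scale the median of all 15839 genes tested was 0.01.

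No gene of the 40 met the full rule for a difference between the hearts, which asked for an adjusted p under 0.05 in an exact two-sided binomial test, a ratio of 2 or more and separate deposited intervals on TPM. Of all genes tested 0.758% met it, 0.461% in favour of replicate 1 and 0.297% in favour of replicate 2. At an adjusted p under 0.05 with no minimum ratio, 29 of the 40 passed, 11 of them higher in replicate 1 and the other 18 higher in replicate 2. The same rule took 20.3% of all genes, 10.1% and 10.2% by direction. Depth matters to such a count: of the 38 whose mean count reached 1000, 28 passed (73.7%), beside 39.6% of all genes at that depth, 16.9% being higher in replicate 1 and 22.7% in replicate 2. The p-values measure counting error between these 2 libraries only. The median log2 ratio was 0.05 over the 40 genes. When libraries were scaled to ERCC totals, every ratio moved down by 0.11, the median of all genes became -0.10, that of the 40 became -0.06, and the split of passing genes became 22 higher in replicate 1 and 0 higher in replicate 2. With total counts the split was 12 and 10. Relative to the median of all genes, which no scaling can alter, 14 of the 40 lay below and 26 above; with no filter on low counts, or with a filter at a mean count of 100, it was 16 and 24. With total counts Acsl1, Crat, Acacb, Acadvl, Acadl, Acads, Hadha and Hadhb no longer passed, and with DESeq2 size factors Acads and Hadha did not; Fabp3 passed as lower in replicate 2 under both. With no filter on low counts Acads and Ucp3 did not pass.

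**Figure D2:**
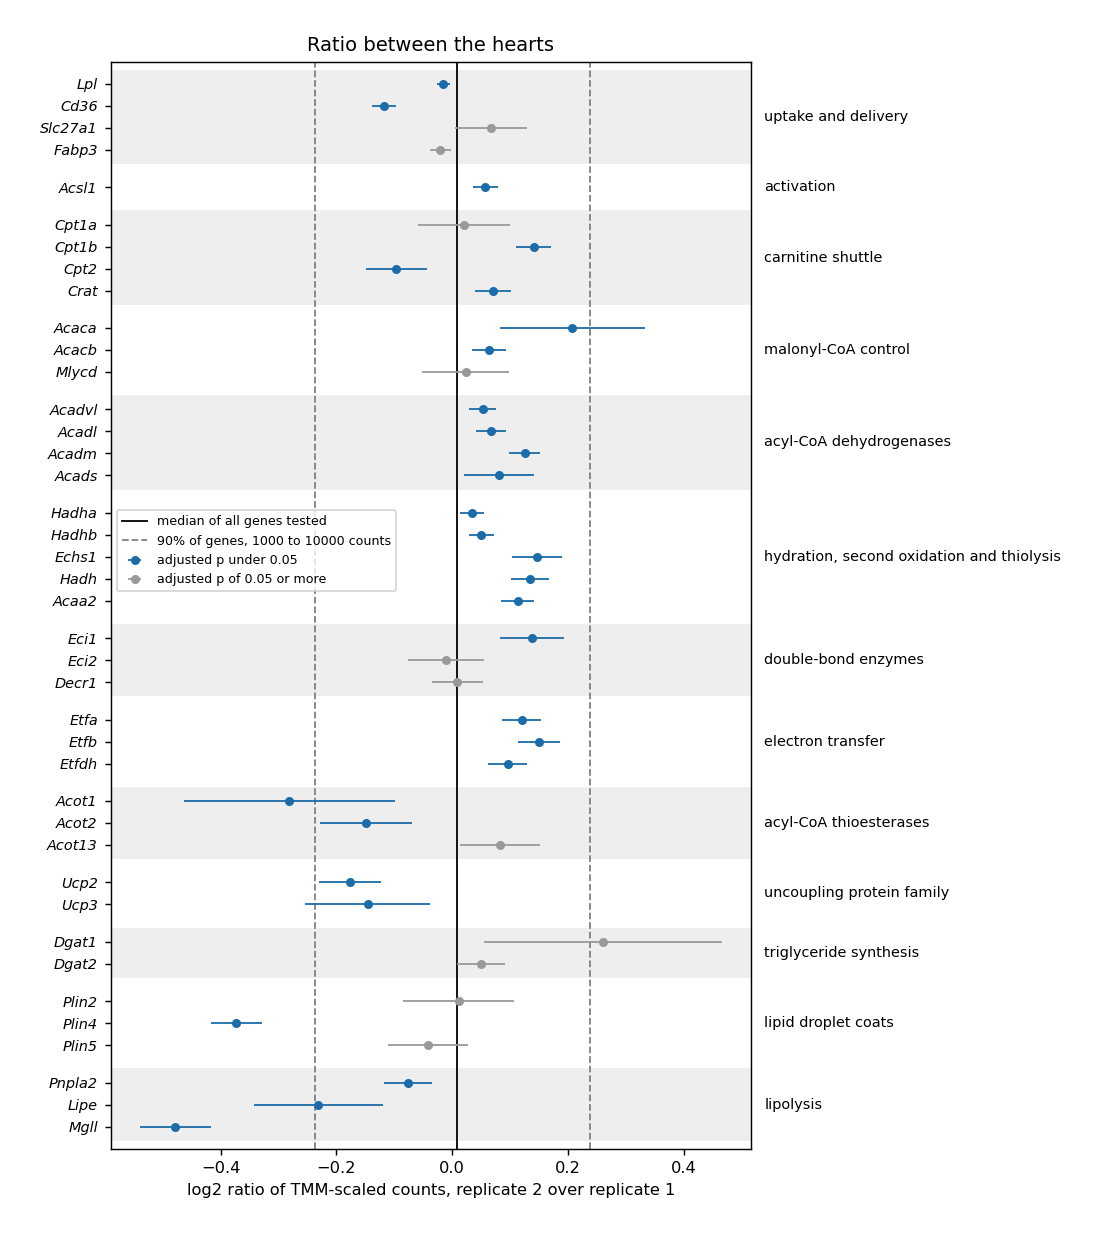
Log2 ratio of TMM-scaled counts, replicate 2 over replicate 1, for each of the 40 genes with its 95% counting interval. The solid line is the median of all genes tested (0.01) and the dashed lines hold 90% of genes with 1000 to 10000 counts (0.24 to either side of 0). Mgll and Plin4 lie beyond the lower line; Acot1 and Dgat1 also lie outside the lines but have between 100 and 1000 counts, where 90% of genes lie within 0.38 of 0. The acyl-CoA dehydrogenases and electron transfer genes lie just right of the solid line; scaling to ERCC totals moves every point left by 0.11.

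Lpl encodes lipoprotein lipase, which frees fatty acids from circulating triglyceride. It stood at 1120.55 TPM in replicate 1 and at 1045.46 TPM in replicate 2, the second highest level of the 40. Fabp3, the fatty acid binding protein of heart and muscle cytosol, was the highest, at 1997.77 and 1846.08 TPM. Both genes were lower in replicate 2 by TPM, but their log2 count ratios were both -0.02. Lpl passed at an adjusted p of 0.032 by the exact binomial test and not on read-based counts, where its ratio was 0.00 with an adjusted p of 0.61. Fabp3 did not pass, with an adjusted p of 0.11 by the same exact test; with ERCC totals Lpl and Fabp3 both passed as lower in replicate 2, at -0.12 and -0.13. The counts of Fabp3 rest partly on how reads were divided, since 21.7% of its 100-base stretches also occur in the processed pseudogene Fabp3-ps1, which was listed at 20.7 and 22.9 TPM.

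Cd36, a membrane glycoprotein that takes up long-chain fatty acids, lies on the minus strand at chr5:17781690-17888801 (mm10). It was at 642.43 TPM in replicate 1 and at 537.48 TPM in replicate 2. Replicate 2 was lower, with a log2 ratio of -0.12 and a 95% counting interval from -0.14 to -0.10, and an adjusted p of 4.7e-28 by the exact binomial test. Slc27a1, a fatty acid transport protein with acyl-CoA synthetase activity, stood at 55.08 and 54.95 TPM, and its log2 ratio of 0.07 did not pass.

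Cd36 is transcribed from several annotated starts, and the quantifications disagreed on which one leads. The starts of Cd36-203, Cd36-202 and Cd36-206 lie far apart, with 39018 bases between Cd36-203 and Cd36-202 and a further 14012 bases to Cd36-206. The opening bases of each form are printed because each form begins with its own leader sequence. The forms also differ elsewhere. Cd36-203 holds 3 internal bases that the other 2 lack. Cd36-206 lacks the last 119 bases of Cd36-203 and the last 117 bases of Cd36-202. Capitals mark bases absent from the other 2 forms.
Cd36-203 (chr5:17888718-17888747, minus strand): ATCCTGTGACTGGGCAAGCAAGCTGTTCTA
Cd36-202 (chr5:17849700-17849729, minus strand): GCATTTTGATGGTTCCTTTAAACTTGTGGC
Cd36-206 (chr5:17835688-17835717, minus strand): AATTCAGGGTAGGGGTTTTCTACTGAGGAC
The quantification made from transcriptome alignments gave Cd36-203 37.7% and 40.1% of the gene's TPM in replicates 1 and 2, and Cd36-202 9.57% and 9.95%. The quantification made directly from the reads gave Cd36-202 41.4% and 50.3%, and Cd36-203 0.598% in replicate 1 and almost none in replicate 2. The order of Cd36-203 and Cd36-202 was the same in both hearts within each method and opposite between the methods. A short coding form, Cd36-205, took 36.2% and 33.0% by alignment and 26.4% and 23.3% from the reads. All 6 annotated Cd36 forms are labelled protein coding.

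Acsl1, the main long-chain acyl-CoA synthetase of heart, activates fatty acids by joining them to coenzyme A. It was at 339.64 TPM in replicate 1 and at 319.65 TPM in replicate 2, with a log2 ratio of 0.06 that passed at an adjusted p of 6.3e-06 by the exact binomial test, while with ERCC totals it passed in the opposite direction, at -0.05. Its coding form Acsl1-201 led in both hearts by both methods, with 66.1% and 68.5% by alignment.

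The message for the entry enzyme of the carnitine shuttle was mostly that of its muscle form. Carnitine palmitoyltransferase 1 on the outer membrane commits the fatty acid to oxidation, and Cpt1b is its muscle form while Cpt1a is its liver form. Cpt1b was at 197.02 TPM in replicate 1 and at 203.91 TPM in replicate 2. Cpt1a was at 23.29 and 24.53 TPM. The log2 ratio of Cpt1b to Cpt1a, taken on TPM plus 0.1, was 3.06 ± 0.02 (SD, n = 2), an 8.35-fold difference with the same order in both hearts. An exact sign-flip test over 2 libraries cannot go below p = 0.5, so no p is given for such ratios here or below. The level of Cpt1b depends on read assignment, because 91.1% of the 100-base stretches of Cpt1b-201 also lie in the separately annotated entry Gm44502, which was listed at 6.31 and 3.85 TPM by alignment and at 25.5 and 22.8 TPM from the reads.

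Cpt2, the inner-membrane enzyme that hands the acyl group back to coenzyme A, was at 105.63 TPM in replicate 1 and at 92.07 TPM in replicate 2. Crat, which moves acetyl groups to and from carnitine, was at 166.44 and 162.55 TPM. Cpt2 was lower in replicate 2, with a log2 ratio of -0.10 and an adjusted p of 0.0026 by the exact binomial test. Crat and Cpt1b were slightly higher in replicate 2 by counts, at 0.07 and 0.14, and Cpt1a did not pass; with ERCC totals Cpt2 was the only carnitine shuttle gene that passed, lower in replicate 2. Crat also changed its leading form with the method: Crat-201 took 52.6% and 52.2% by alignment, and Crat-202 took 42.4% and 43.0% from the reads.

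Malonyl-CoA inhibits carnitine palmitoyltransferase 1, and 3 of the genes set its amount. Acacb, the acetyl-CoA carboxylase at the mitochondrial surface, was at 69.95 TPM in replicate 1 and at 68.84 TPM in replicate 2. Acaca, the cytosolic carboxylase of fatty acid synthesis, was at 6.34 and 6.62 TPM and was the lowest of the 40 genes. Mlycd, which degrades malonyl-CoA, was at 41.83 and 39.90 TPM. Acacb thus exceeded Acaca in both hearts, by a log2 ratio of 3.40 ± 0.06 (SD, n = 2). Acacb and Acaca passed as higher in replicate 2 at log2 ratios of 0.06 and 0.21, while Mlycd did not pass; with ERCC totals none of the 3 was called higher there and Acacb passed as lower, at -0.04. Of Acaca-201, 45.2% of 100-base stretches recur in the processed pseudogene Gm5182, listed at 1.03 and 1.01 TPM.

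Beta-oxidation opens with the acyl-CoA dehydrogenases, which differ in the chain length they prefer. Acadvl, for very long chains, was at 464.10 TPM in replicate 1 and at 452.41 TPM in replicate 2. Acadl, for long chains, was at 402.79 and 389.53 TPM. Acadm, for medium chains, was at 396.54 and 407.26 TPM. These 3 enzymes were present at similar levels. Acads, for short chains, was far lower, at 72.68 and 72.56 TPM, so that Acadm exceeded it by a log2 ratio of 2.47 ± 0.03 (SD, n = 2). Acadl was below Acadvl by 0.21 ± 0.01 on the log2 scale by alignment. The read-based tables put Acadvl higher, at 699.5 and 654.6 TPM, with 43.0% and 37.4% of it in noncoding forms against 16.3% in each heart by alignment. All 4 dehydrogenases passed as higher in replicate 2 by TMM-scaled counts, with log2 ratios from 0.05 to 0.13; with ERCC totals none passed as higher there and 2 passed as lower.

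The next steps of the spiral add water, oxidise again and split off acetyl-CoA. For long chains these steps are carried out by the mitochondrial trifunctional protein, whose alpha subunit is Hadha and whose beta subunit is Hadhb. Hadha was at 409.23 TPM in replicate 1 and at 387.82 TPM in replicate 2. Hadhb was at 635.03 and 635.61 TPM, the third highest level of the 40. The subunit genes stand head to head on chromosome 5, Hadha at chr5:30118304-30155162 on the minus strand and Hadhb at chr5:30155248-30184593 on the plus strand, with 85 bases between them. Hadhb exceeded Hadha by a log2 ratio of 0.67 ± 0.06 (SD, n = 2) by alignment and by 1.21 from the reads. The excess of Hadhb had the same direction by both methods and was larger with the read-based tables.

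Sequence shared with other entries bears on Hadhb directly. Of the 100-base stretches of Hadhb-201, 53.2% recur in other genes, all of these in the processed pseudogene Gm13910. That pseudogene was itself listed at 78.7 and 79.9 TPM by alignment and at 122 and 126 TPM from the reads. Hadhb was also among the genes raised most by the read-based method, at 1.57 and 1.65 times its alignment-based level. Its leading form differed between methods: the coding Hadhb-201 took 46.7% and 51.8% by alignment, while the retained-intron form Hadhb-208, of 507 bases, took 48.5% and 50.7% from the reads. The leading Hadha form, Hadha-201, is annotated as a processed transcript without a coding frame. It took 62.0% and 63.1% by alignment and 74.5% and 75.4% from the reads, while the coding Hadha-205 took 28.4% and 28.6% by alignment.

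Shorter chains are handled by single enzymes. Echs1, the short-chain enoyl-CoA hydratase, was at 169.67 TPM in replicate 1 and at 176.07 TPM in replicate 2. Hadh, the 3-hydroxyacyl-CoA dehydrogenase of medium and short chains, was at 254.73 and 262.59 TPM. Acaa2, the thiolase that ends each turn, was at 499.90 and 501.93 TPM. The TPM of each varied by under 3% (coefficient of variation) between the hearts. All 5 genes of these steps passed as higher in replicate 2 by TMM-scaled counts, with log2 ratios from 0.03 for Hadha to 0.15 for Echs1; with ERCC totals none passed as higher there and Hadha and Hadhb passed as lower, at -0.07 and -0.06.

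Unsaturated fatty acids need auxiliary enzymes that move or remove double bonds. Eci1, an enoyl-CoA isomerase of the mitochondrion, was at 157.19 TPM in replicate 1 and at 164.73 TPM in replicate 2. Eci2, a second isomerase, was at 100.69 and 93.67 TPM. Decr1, the 2,4-dienoyl-CoA reductase, was at 87.74 and 82.75 TPM. Eci1 was the only one of these 3 that passed, at a log2 ratio of 0.14 by TMM-scaled counts, and it did not pass with ERCC totals, where Eci2 and Decr1 passed as lower in replicate 2, at -0.12 and -0.10. The read-based tables raised Eci2 to 1.65 and 1.85 times its alignment-based level, and gave 30.6% and 36.5% of it to Eci2-205, a retained-intron form of 427 bases, where alignment gave 55.0% and 52.9% to the coding Eci2-211.

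Electrons from the acyl-CoA dehydrogenases pass through the electron transfer flavoprotein, made of Etfa and Etfb, to its ubiquinone oxidoreductase Etfdh. Etfa was at 331.41 TPM in replicate 1 and at 334.72 TPM in replicate 2. Etfb was at 497.48 and 510.66 TPM. Etfdh was at 189.24 and 188.86 TPM. The levels of all 3 agreed within 3% coefficient of variation, and Etfb exceeded its partner Etfa by a log2 ratio of 0.60 ± 0.02 (SD, n = 2). All 3 passed as higher in replicate 2 by TMM-scaled counts, at log2 ratios from 0.10 to 0.15; with ERCC totals none passed in either direction. Of the 100-base stretches of Etfb-201, 65.2% recur in Gm45233, which was listed at 0.15 and 0.24 TPM.

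Acyl-CoA thioesterases release free fatty acid from coenzyme A. Acot13 was at 162.49 TPM in replicate 1 and at 161.28 TPM in replicate 2, and did not pass. Acot2, the mitochondrial form, was at 38.62 and 32.65 TPM. Acot1, the cytosolic form, was at 13.79 and 10.77 TPM. Acot2 and Acot1 were both lower in replicate 2, with log2 ratios of -0.15 and -0.28. They are close paralogs on chromosome 12 with 15616 bases between them, and 38.0% of the 100-base stretches of Acot1-204 recur in Acot2, so reads could be divided between them in more than one way. Acot1 did not pass on read-based counts, with an adjusted p of 0.23 by the same exact test.

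Ucp2 and Ucp3 encode mitochondrial carriers of the uncoupling protein family, and Ucp3 is the form typical of muscle. Ucp2 was at 163.87 TPM in replicate 1 and at 141.07 TPM in replicate 2. Ucp3 was at 19.20 and 16.25 TPM. Ucp2 was thus the more abundant message in these whole hearts, with a log2 ratio of Ucp3 to Ucp2 of -3.10 ± 0.02 (SD, n = 2). The genes are neighbours on chromosome 7 with 6904 bases between them. Both were lower in replicate 2, with log2 ratios of -0.18 for Ucp2 and -0.15 for Ucp3; the call for Ucp3 was lost on read-based counts, at an adjusted p of 0.060 by the exact binomial test. Ucp2 was raised 1.55 and 1.57 times by the read-based method. Heart tissue was sequenced in bulk, so fewer cells of a type and less RNA per cell cannot be told apart for this or any other gene here.

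Storage begins with esterification to triglyceride, whose final step is shared by Dgat1 and Dgat2. Dgat2 was at 130.45 TPM in replicate 1 and at 126.23 TPM in replicate 2. Dgat1 was at 7.81 and 7.74 TPM. Dgat2 exceeded Dgat1 by a log2 ratio of 4.03 ± 0.02 (SD, n = 2), the widest gap among the 12 pairs compared. Neither passed by TMM-scaled counts, with log2 ratios of 0.05 for Dgat2 and 0.26 for Dgat1, whose counts were 363 and 421. Both calls were close to the threshold: Dgat1 passed as higher in replicate 2 when only genes with a mean count of 100 or more were tested (adjusted p of 0.049 by the exact test). Dgat2 passed as higher there on read-based counts (adjusted p of 0.039 by the exact test) and as lower, at -0.06, with ERCC totals. Dgat1-203, a retained-intron form, took 27.9% of the gene in replicate 1 and 12.6% in replicate 2.

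The droplet surface is coated by perilipins. Plin5, which holds droplets near mitochondria in oxidative tissue, was at 54.89 TPM in replicate 1 and at 49.97 TPM in replicate 2. Plin2, the widely expressed coat protein, was at 46.07 and 44.18 TPM. Plin4 was at 52.24 and 37.81 TPM. The 3 perilipins were at similar levels in replicate 1, and Plin4 was below the other two in replicate 2. Its log2 ratio was -0.37 with a 95% counting interval from -0.42 to -0.33, and its adjusted p was 3.3e-62 by the exact binomial test. Of genes whose mean count reached 1000, 2.17% had a ratio as low or lower. Neither Plin2 nor Plin5 passed, and with ERCC totals Plin5 passed as lower in replicate 2, at -0.15. The order of Plin5 over Plin2, a log2 ratio of 0.21 ± 0.05 (SD, n = 2) by alignment, was lost with the read-based tables, where it was 0.00.

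Plin4 also shows how little can separate annotated forms. Its 2 transcripts, Plin4-202 of 5756 bases and Plin4-201 of 5755 bases, have the same sequence but for 1 base at the 5′ end. Their annotated exons also place 21 bases at different positions of the gene, which leaves the spliced sequence the same. The ends are printed with the single 5′ base in capitals.
Plin4-202 (chr17:56109774-56109803, minus strand): Gggattgggcgcccagacgctgccagcagc
Plin4-201 (chr17:56109774-56109802, minus strand): ggattgggcgcccagacgctgccagcagc
Alignment gave 100% and 99.5% of the gene to Plin4-202. The read-based method gave it 49.97% and 64.2%, with the rest on Plin4-201. These shares therefore describe how each method divided reads that fit both forms.

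Stored triglyceride is broken down in sequence by adipose triglyceride lipase (Pnpla2), hormone-sensitive lipase (Lipe) and monoacylglycerol lipase (Mgll). Pnpla2 was at 163.96 TPM in replicate 1 and at 142.70 TPM in replicate 2. Lipe was at 15.58 and 12.13 TPM. Mgll was at 48.91 and 32.66 TPM. All 3 were lower in replicate 2, and they were the only step besides the uncoupling proteins in which every gene passed in that direction by TMM-scaled counts. Mgll had the lowest ratio of the 40 genes, -0.48 with a 95% counting interval from -0.54 to -0.42, and an adjusted p of 6.6e-51 by the exact binomial test. Of genes whose mean count reached 1000, 1.07% had a ratio as low or lower. Lipe followed at -0.23 and Pnpla2 at -0.08, and Pnpla2 did not pass on read-based counts, with an adjusted p of 0.092. Pnpla2 exceeded Lipe by a log2 ratio of 3.47 ± 0.11 (SD, n = 2).

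The leading Pnpla2 form in both hearts, Pnpla2-201, is annotated as a target of nonsense-mediated decay, the pathway that degrades messages with an early stop codon. It took 58.4% and 58.5% by alignment and 52.8% and 48.2% from the reads, while the coding Pnpla2-202 took 15.5% and 18.9% by alignment. Another coding form, Pnpla2-206, took 19.1% and 15.4% by alignment. All coding forms together held 40.1% and 40.6% of the gene by alignment. Pnpla2-201 holds whole exons that Pnpla2-202 lacks, of 82 bases at chr7:141456568-141456649 and of 168 bases at chr7:141458592-141458759. The junctions into these exons are printed because these exons are what sets Pnpla2-201 apart from Pnpla2-202 in the body of the gene. Capitals mark the start of each extra exon.
Pnpla2-201, exon of 82 bases: gggcctgcctggGTGATCTTGAGCAGCTAG
Pnpla2-201, exon of 168 bases: ttaggaggaatgGCCTACTGAACCAACCCA
The first window spans chr7:141455462-141456585 and the second chr7:141458479-141458609, both on the plus strand with an intron between the lower-case and the capital bases.

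In several genes a single form dominated. Echs1-201, Hadh-201, Acads-201, Acadl-201, Decr1-201, Etfa-201, Etfdh-201, Mlycd-201, Ucp3-201, Dgat2-201 and Acot13-201, all coding, each held over 90% of its gene in both hearts by alignment. In the read-based tables the shares were lower for Acads-201 (86.2% and 86.3%), Acadl-201 (79.4% and 79.5%), Etfa-201 (84.6% and 85.2%) and Ucp3-201 (81.5% and 81.2%), and Etfdh-201 held 93.1% and 76.2%. Mgll, Lipe and Plin5 were divided between forms. Mgll-204 took 70.0% of Mgll in replicate 1 and 59.8% in replicate 2 by alignment, with Mgll-201 at 10.3% and 16.7%, and the read-based tables gave Mgll-201 38.9% and 36.0%. Lipe-208 took 56.8% and 53.1% of Lipe by alignment and Lipe-202 took 31.2% and 34.9%. Plin5-201 and Plin5-202 shared Plin5, with 64.3% and 62.8% on Plin5-201 by alignment and 87.2% and 88.5% from the reads. These are all annotated as coding.

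Forms not annotated as coding took a large share of a few other genes. Slc27a1 had 55.5% and 57.0% of its TPM in noncoding forms by alignment. Acot1-204, a processed transcript, took 49.0% and 53.5% of Acot1. Lpl-203, annotated for nonsense-mediated decay, took 24.7% and 25.8% of Lpl. For most of the 40 genes the coding forms dominated, with a median coding share of 95.4% in replicate 1 and 95.5% in replicate 2, beside 93.5% and 94.8% over all detected nuclear protein-coding genes. In replicate 1, 3 of the 40 had a coding share under 50%, and in replicate 2 it was 4, beside 7.70% and 7.11% of all such genes. The leading form was the same by both methods for 32 of the 38 genes with several forms in replicate 1 (84.2%) and for 31 in replicate 2 (81.6%), against 75.0% and 75.1% over all genes with several forms. Between the hearts it was the same for 37 of 38 by alignment and for 36 of 38 from the reads.

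**Figure D3:**
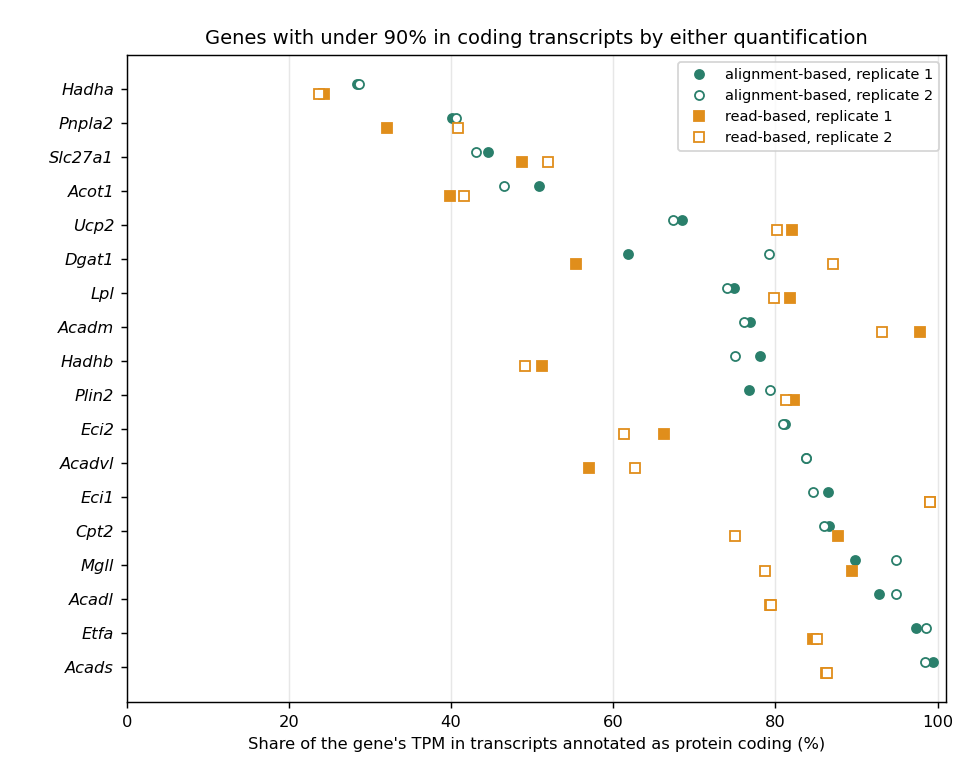
Share of each gene's TPM in protein-coding transcripts (%) for the 18 genes with a mean share under 90% by either method, with circles for alignment-based and squares for read-based tables, filled for replicate 1 and open for replicate 2. Hadha and Pnpla2 lie below 50% by both methods in both hearts, and Hadhb and Acadvl lie lower from the reads than by alignment.

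The steps did not move as a block between the hearts. Relative to the median of all genes, the median log2 ratio of a step was -0.24 for lipolysis, -0.17 for the uncoupling proteins and -0.16 for the thioesterases. It was 0.07 for the acyl-CoA dehydrogenases, 0.10 for the later spiral steps and 0.11 for electron transfer. Triglyceride synthesis lay furthest above, at 0.15, though neither of its genes passed. The other steps lay between -0.05 for the lipid droplet coats and 0.05 for malonyl-CoA control, with the double-bond enzymes at 0.00. These distances cannot change with the scaling, which moves all genes together, and they were not tested.

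**Figure D4:**
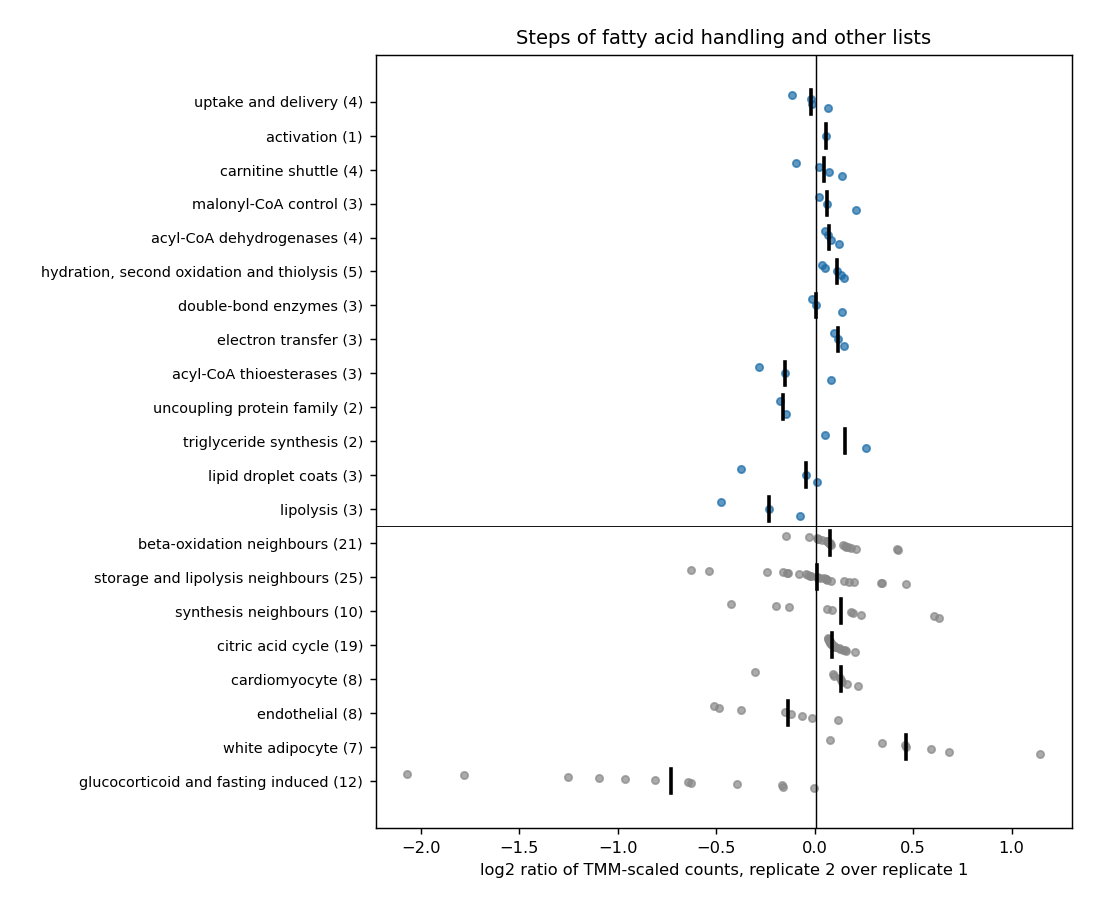
Log2 ratio of TMM-scaled counts, replicate 2 over replicate 1, for each gene (points) and its median (bars), with the steps of the 40 genes above the dividing line in blue and other lists below it in grey; the number of genes tested is in brackets. The lipolysis, uncoupling protein and thioesterase medians lie left of the median of all genes. So do those of the glucocorticoid and fasting and the endothelial lists. The medians of the acyl-CoA dehydrogenases, later spiral steps, electron transfer and triglyceride synthesis lie to the right. So do those of the citric acid cycle, cardiomyocyte and white adipocyte lists. The double-bond enzyme median lies at that of all genes. Scaling to ERCC totals moves every point left by 0.11.

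Other genes differed between the same libraries. The lists below were chosen with earlier results of these data known, so their counts are description only. At any ratio, 10.1% of all genes tested passed as lower in replicate 2 and 10.2% as higher. The full rule took 0.461% and 0.297% in those directions. All 12 genes of a list induced by glucocorticoid or fasting were lower in replicate 2, with 10 passing; their summed level was 670 TPM in replicate 1 and 350 TPM in replicate 2, and Pdk4, the kinase that restrains pyruvate oxidation, was at 228.6 and 98.9 TPM. Pdk4, Zbtb16, Fkbp5 and Mt2 of this list were called by the full rule. Endothelial markers summed to 434 and 327 TPM, with 6 of 8 passing as lower in replicate 2, Aqp1 the highest at 175.9 and 117.6 TPM. Fibroblast markers summed to 471 and 380 TPM, with Dcn the highest, and macrophage markers to 97.3 and 77.6 TPM, with Lyz2 the highest; 3 of 6 passed as lower in replicate 2 in each list. White adipocyte markers were low in both hearts, at a sum of 13.9 and 16.5 TPM, with ratios above 0 in all 7 genes tested and 1 passing, and Cfd was the highest. Adipoq was at 1.14 and 1.98 TPM and Lep at 0.01 and 0.11 TPM. Brown adipocyte markers summed to 71.6 and 61.6 TPM, most of it Ppargc1a, which the heart also expresses. Of the 3 tested, Ppargc1a passed as lower in replicate 2, Cidea did not pass at a log2 ratio of -0.02, and Ucp1 passed as higher at 3.14 and 5.83 TPM. Elovl3, Zic1 and Lhx8 were at or near 0. Liver markers summed to 9.20 and 35.8 TPM, with 8 of 10 called higher in replicate 2 (Alb, Apob, Apoa1, Apoa2, Ttr, Serpina1c, Cyp2e1 and Fgb), Alb at 0.03 and 13.4 TPM. The part of these differences in the ratios of Mgll, Plin4, Cd36 and the other genes lower in replicate 2 was not tested.

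Around the 40 genes, 103 further genes of the same pathway were examined in 8 lists, of which 87 were detected and 98 tested. None was called by the full rule. At any ratio 11 passed as higher in replicate 1 and 20 as higher in replicate 2 by TMM-scaled counts, beside 10.1% and 10.2% of all genes. Their median level was 10.1 TPM in replicate 1 and 9.81 TPM in replicate 2, far below that of the 40. In uptake the highest was Got2, a mitochondrial aminotransferase also described as a fatty acid binding protein of the plasma membrane, at 334.5 and 323.9 TPM, followed by Fabp4 at 314.6 and 251.7 TPM and Dbi, the acyl-CoA binding protein, at 94.6 and 92.9 TPM. Gpihbp1, which holds lipoprotein lipase at the capillary wall, was at 43.8 and 28.7 TPM. It was lower in replicate 2 at a log2 ratio of -0.51, and Fabp4 was lower at -0.25.

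Among other activating enzymes, Acss1, the mitochondrial acetyl-CoA synthetase, was highest at 95.2 and 94.7 TPM, followed by Acss2 at 15.4 and 16.2 TPM and Acsl5 at 4.38 and 4.41 TPM. No other long-chain synthetase came near Acsl1. Slc25a20, the carnitine-acylcarnitine translocase that works between Cpt1b and Cpt2, was at 73.9 and 71.9 TPM. Slc22a5, the carnitine importer, was at 9.96 and 9.14 TPM, and Crot, the peroxisomal octanoyltransferase, was at 9.70 and 9.31 TPM.

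Among 21 further genes of oxidation, 5 passed as higher in replicate 2 by TMM-scaled counts and none as higher in replicate 1. Of all genes tested, 10.2% and 10.1% did so. The highest was Ech1, a dienoyl-CoA isomerase, at 514.2 and 496.0 TPM, followed by Acat1, a thiolase of ketone and isoleucine breakdown, at 111 and 110 TPM and Hsd17b10 at 90.4 and 96.2 TPM. Further thioesterases were scarce: Acot7 was at 22.6 and 23.9 TPM, Acot11 at 14.3 and 10.4 TPM and Acot9 at 12.4 and 11.2 TPM, while Acot3, Acot4, Acot5, Acot6, Acot12 and Them5 were under 1 TPM in both hearts. In storage the highest were Agpat3, an acyltransferase of phospholipid and triglyceride assembly, at 78.3 and 78.1 TPM, and the droplet proteins Fitm1 at 73.9 and 78.1 TPM and Fitm2 at 70.2 and 68.1 TPM. Mogat1, Mogat2 and Cideb were under 1 TPM in both hearts. The remaining genes under 1 TPM in both were Slc27a3, Slc27a6, Acaa1b, Eci3 and Elovl6.

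Of 11 regulators, 3 passed as lower in replicate 2 and 2 as higher by TMM-scaled counts. The same held for 10.1% and 10.2% of all genes tested. Ppara, the nuclear receptor that drives many fatty acid oxidation genes, was at 22.6 TPM in replicate 1 and at 18.5 TPM in replicate 2, a log2 ratio of -0.30. Its coactivator Ppargc1a was at 50.6 and 39.3 TPM, a log2 ratio of -0.27. Esrra, an orphan receptor active on mitochondrial genes, was at 56.3 and 58.4 TPM, a log2 ratio of 0.14, and Prkag1, a subunit of AMP-activated kinase, was at 39.5 and 36.9 TPM.

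The promoters of the 40 genes were searched for a pair of motifs that such receptors bind. The RefSeq promoter table (GRCm38.p6) holds 38 promoters of 32 of the genes, each from 250 bases before to 50 bases after the start. The direct repeat, AGGTCA followed by any 1 base and AGGTCA again, was found on neither strand of any of the 38, beside 0.0396% of all 32851 promoters, and the site TCAAGGTCA was found on either strand in 0 of the 38, beside 0.423% of all. These exact letters are rare in windows of this length.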

How the data were processed

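Total RNA from 2 hearts was quantified by the authors against mm10 with GENCODE M21, per the deposited file listings; the tools and their versions were not given in the sources used here. Expected counts were deposited per gene and transcript from transcriptome alignments, and estimated counts per transcript from the reads, neither normalized, per the file headers. TPM was made by the authors with spike-ins in the total, per the file headers. Score columns give the deposited interval bounds on TPM, of unstated level; the point TPM lay above that interval for 6 of the 40 genes in replicate 1 and 5 in replicate 2, Lpl, Cd36 and Fabp3 among them. The percent column, deposited in the alignment-based transcript tables, is each transcript's share of its gene.

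Read-based TPM and counts were summed to genes. Rounded expected counts were scaled by TMM (edgeR 4.0.16) over all genes and compared with an exact two-sided binomial test (scipy 1.17.1) in genes whose mean count reached 10, with Benjamini-Hochberg adjustment over all 15839 genes and Clopper-Pearson 95% intervals, which cover counting error only. The test was tested on simulated data. Alternatives were DESeq2 1.42.0 size factors, total counts, ERCC totals, other filters, a pseudocount of 1, posterior mean TPM and the read-based tables. Shared sequence was counted in 100-base stretches of annotated transcripts, of the leading form of each gene.

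All 40 genes are named. Of the pathway lists, the 3 highest by mean TPM, any called and those under 1 TPM in both hearts are named. Of other lists, the highest and those called are named. Transcripts are named for some genes only. The leading form is left out for others, among them Lpl, Cpt1a, Cpt2, Acadm, Acaa2, Eci1, Ucp2 and Plin2. Gpihbp1, Ppara, Adipoq, Lep and the lower brown adipocyte markers were picked once values had been seen. The 40 genes and the lists were chosen with earlier results of these data known. ERCC entries were left out of gene totals. Sequences are from the GENCODE M21 transcripts; the expression files cannot tell the parental alleles apart.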

Additional observations from a re-analysis of the deposited data

How the results depend on the processing

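The count of genes detected (40) and the count called between the hearts (0) were the same under every alternative run. Leaving out a library gave a median of 141.885 to 159.84 TPM, a share of 0.996% to 1.04% and 31 to 32 genes with the same leading form by both methods; it leaves no comparison between hearts, so those tests were not run that way. With read-based TPM the median was 192 TPM and the share 1.30%; after rescaling to nuclear protein-coding genes they were 387 TPM and 2.59%, since TPM depends on what shares the total. With ERCC totals the median log2 ratio reversed to -0.057. Read-based pair ratios (log2) were 3.03 for Cpt1b to Cpt1a, 3.27 for Acacb to Acaca, 1.27 for Acot2 to Acot1, -3.51 for Ucp3 to Ucp2, 0.51 for Eci1 to Eci2, 1.21 for Hadhb to Hadha, 0.48 for Etfb to Etfa, -0.42 for Acadl to Acadvl and 2.36 for Acadm to Acads; Plin5 to Plin2 reversed, to -0.0046. A pseudocount of 1 gave 3.02 for Cpt1b to Cpt1a, 3.23 for Acacb to Acaca, 3.88 for Dgat2 to Dgat1 and -3.04 for Ucp3 to Ucp2. Posterior mean TPM gave 3.33 for Acacb to Acaca and 3.83 for Dgat2 to Dgat1. The cause of the read-based differences was not tested. Read-based TPM of single genes moved beyond the spread between hearts for 32 of the 40 and within it for 8. Such a rise was general. The median ratio of read-based to alignment-based TPM over detected nuclear protein-coding genes was 1.16 in replicate 1 and 1.19 in replicate 2. Over the 40 genes it was 1.17 and 1.21. No paired analysis was possible because the series has 1 group. With 2 hearts the spread between animals is poorly known, and the lowest counts, as for Dgat1, limit what ratio can be told from counting error.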

Other observations

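Genes of fatty acid synthesis, which shares malonyl-CoA with the control of oxidation, were present at low levels. Fasn, the fatty acid synthase, had 11.5 TPM in replicate 1 and more, 16.6 TPM, in replicate 2, and it passed as higher in replicate 2 with a log2 ratio of 0.61. Scd1, a stearoyl-CoA desaturase, was at 13.1 and 13.9 TPM, with a log2 ratio of 0.24. Srebf1, a transcription factor of lipid synthesis, was at 14.7 and 11.8 TPM, with a count ratio of 0.20 although its TPM was lower in replicate 2. Of the 10 synthesis genes, 5 passed as higher in replicate 2 and 2 as higher in replicate 1 by TMM-scaled counts. The same held for 10.2% and 10.1% of all genes tested.

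Genes of the citric acid cycle, which takes up the acetyl-CoA from oxidation, had a median of 328 TPM in replicate 1 and of 322 TPM in replicate 2 over 19 genes, Mdh1 the highest, with 18 passing as higher in replicate 2 by TMM-scaled counts. Genes of glycolysis had a median of 222 and 214 TPM over 20 genes, Gapdh the highest. Of these, 12 passed as higher in replicate 2 and 1 as lower. Over all genes tested, 10.2% passed as higher in replicate 2 and 10.1% as lower. At a mean count of 1000 or more, it was 22.7% and 16.9%. Scaling to ERCC totals shifts every log2 ratio by -0.11. The medians of these 2 lists lay above that of the 40 fatty acid genes in both hearts, but the 40 span unlike steps. The uptake, activation, acyl-CoA dehydrogenase, later spiral and electron transfer medians lay above that of glycolysis in both hearts. For the dehydrogenases it was 400 and 398 TPM. Carnitine shuttle, malonyl-CoA control, double-bond, thioesterase, uncoupling, triglyceride synthesis, droplet coat and lipolysis medians lay below both lists.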
